A study of Phoxinus septimaniae with 18 samples.

Results

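The 200 genes described here are assembled genes of an invasive minnow (Phoxinus septimaniae x P. dragarum) that carried many counts in brain, gills and liver alike. They were chosen by their measured levels. A gene had to be listed in all 3 tissue tables and have a first protein hit with the source code DANRE and no transmembrane tag. Its highest tissue mean had to lie under 20 times its lowest. The lowest value among the 3 salt livers and reference liver 1 had to lie under 3 times the highest value of reference livers 2 and 3. Of 36271 genes in any table, 11818 were in all 3, 7670 of these had such a first hit, 5875 also lacked the transmembrane tag, 5191 were also within the limit on the tissue means and 5170 passed every condition. The 200 with the largest lowest tissue mean, in CPM (counts scaled to the library total), are the members. Liver totals were taken without a first hit, ENSDARP00000050237, that took a large share of some liver libraries.

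The fish came from a salt station beside a potash mine on the Llobregat River, where the salinity was 18.1 ppt, or from an upstream station of lower salinity that served as the reference. The study asked how each tissue's transcripts differed between these stations. Each tissue had 3 salt and 3 reference libraries, 18 in all, from wild fish whose age and sex the labels do not state. Salinity was not assigned to the fish, so the station and everything else that differed between the places cannot be told apart.

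Genes that are abundant in unlike tissues usually serve needs that all cells share: making proteins, folding and degrading them, supplying energy and building the cytoskeleton. The 3 tissues themselves do very different work. Gills exchange gases and salts with the water, the liver makes most plasma proteins and stores nutrients, and the brain consists of neurons and glia. The files pair the protein accessions with no gene symbol, so members are given by accession and their functions are not stated. For the same reason the tissue labels could not be checked against marker genes. In whole tissue, fewer cells of a type and less RNA per cell cannot be told apart.

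Brain libraries held 23678725 to 28731252 counts, gill libraries 15200774 to 24222245 and liver libraries 22183499 to 39881549. The library codes name 9 fish, whereas the series description speaks of 6. Brain and liver shared the same 6 codes under the same replicate numbers, and only 3 of the 6 gill codes were among them. All salt codes end in the letter B, and those of the reference brains, reference livers and gill reference 1 in C. The codes of gill reference 2 and 3 end in A. Whether these libraries come from the same reference set as the others was not tested. Gill library salt 3 stood apart from its label. Over the 200 members its median absolute log2 difference from gill reference 1 was 0.07, while the other gill pairs ran from 0.15 to 0.43. The value that counting error alone gives for that pair was 0.02. Gill salt 3 was nearest to gill reference 1 for 102 members, and gill reference 1 was nearest to gill salt 3 for 105. Several fitted gill values are therefore also given without both: medians, counts at an unadjusted p and of intervals in edgeR, and fold changes of members named within gills. Counts by direction, size and overlap, the counts of DESeq2, the liver contrasts and the contrasts of named members are given with both only. The values of each gill library are printed for members described station by station in gills. The left-out liver hit took 40.9, 42.6 and 33.2% of the salt liver counts, against 28.9, 0.000151 and 0.000164% of the reference liver counts.

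The members' tissue levels are what chose them and are a description. Their lowest tissue mean was at least 102 CPM, where the median gene of each table had 5.08 CPM in brain, 5.61 CPM in gills and 6.17 CPM in liver. The median member had 278 CPM in brain, 493 CPM in gills and 238 CPM in liver. Of the members, 38 were among the 200 highest genes of the brain table, 87 among those of the gills and 55 among those of the liver. In single libraries, 119 members had at least 100 CPM in all 18 and 188 had at least 50 CPM in all 18, and 2 fell under 10 CPM in a library. CPM is not divided by transcript length, which the tables do not hold, so levels are compared here within a gene across tissues and not between genes.

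The gills held the highest mean for 136 members (68%), the brain for 46 (23%) and the liver for 18 (9%). Over all 11818 genes in the 3 tables, the highest mean lay in gills for 48.6%, in brain for 43.3% and in liver for 8.08%. The lowest mean lay in liver for 103 members (51.5%, against 71.8% of all these genes), in brain for 85 (42.5%, against 19.4%) and in gills for 12 (6%, against 8.83%). The commonest order was gills, liver, brain from high to low, with 74 members. Another 62 members ran gills, brain, liver and 41 ran brain, gills, liver. The highest tissue mean was a median 3.66 times the lowest, with a range of 1.19 to 17.6 under the limit of 20. It was under 2 for 31 members, from 2 to under 5 for 115, from 5 to under 10 for 45 and 10 or more for 9.

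**Figure D1:**
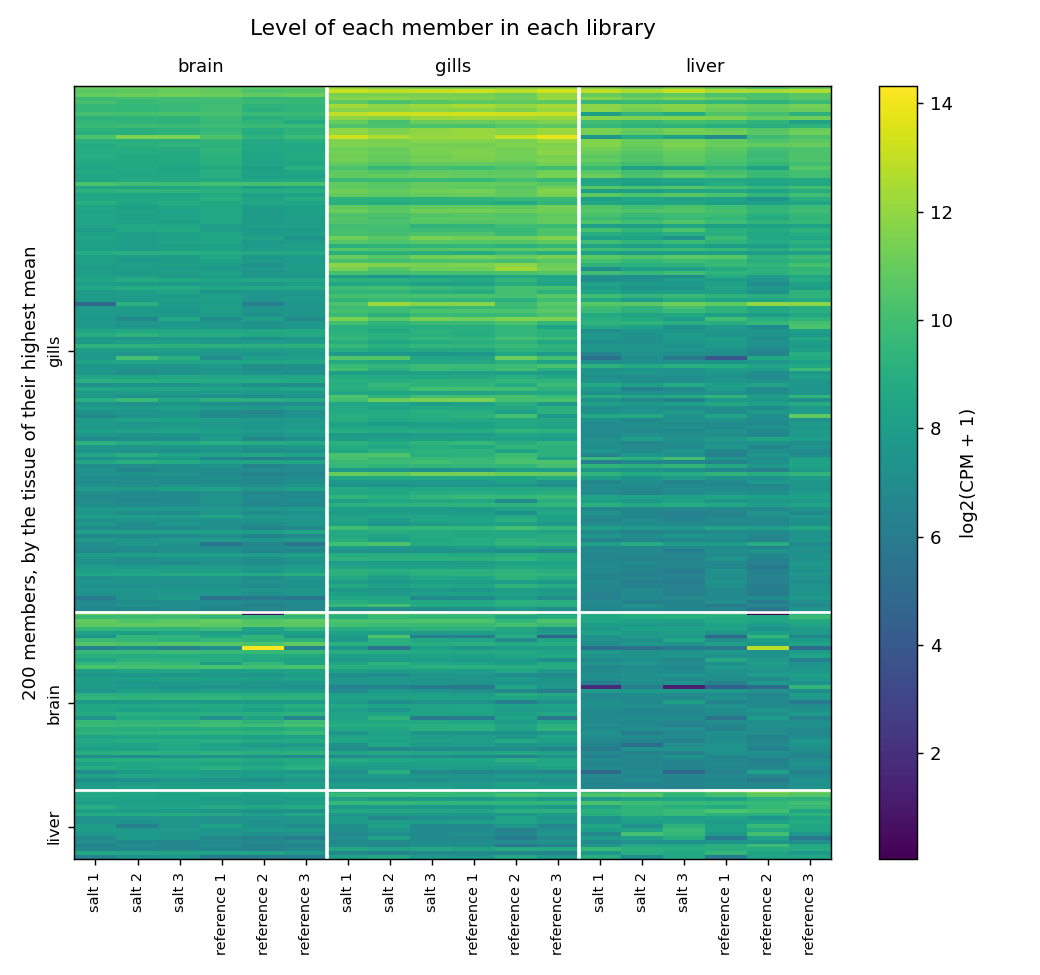
Level of the 200 members, as log2(CPM + 1), in each of the 18 libraries, with salt left of reference within each tissue and members grouped by the tissue of their highest mean. The gill columns are the brightest for 136 members, and single dark or bright cells in the brain and liver columns of reference 2 belong to members that stood apart in that fish.

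The member with the largest lowest tissue mean was ENSDARP00000090766 (gene DN3311_c0_g1). It averaged 1968 ± 265 CPM in brain, 3373 ± 515 CPM in gills and 2273 ± 706 CPM in liver (SD, n = 6 each, both stations). In brain it had 2046, 2109 and 2379 CPM in salt fish, against 1882, 1687 and 1703 CPM in reference fish. The salt brains lay above the reference brains without overlap. In gills it had 4077, 3109.6 and 2814 CPM in salt fish, against 2878, 3595 and 3765 CPM in reference fish, and the stations overlapped. In liver it had 3047, 2253 and 3127 CPM in salt fish, against 1910.0, 1291 and 2012 CPM in reference fish.

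ENSDARP00000006339 (DN4800_c0_g2) was far more abundant in gills and liver than in brain. It had 8988, 7908 and 8775 CPM in salt gills, against 9662, 7637 and 10439 CPM in reference gills. Its brain values were 1551, 1741 and 1999 CPM in salt fish, against 1916, 1253 and 1410.2 CPM in reference fish. In liver it had 8039.9, 6133 and 8553 CPM in salt fish, against 5820.4, 5466 and 6158 CPM in reference fish. The stations overlapped in all 3 tissues, while the tissues did not overlap between brain and either of the others. ENSDARP00000104512 (DN268_c2_g2) lay much closer across tissues. Its brain values were 1978, 2121 and 2282 CPM in salt fish, against 2221, 1920.0 and 2189 CPM in reference fish. Its gill values were 2656, 2708 and 2685 CPM in salt fish, against 2688, 2140.0 and 4194 CPM in reference fish. In liver it had 1942, 1569 and 1782 CPM in salt fish, against 1241, 1235 and 1595 CPM in reference fish. The 3 salt gills of this member were nearly equal, and reference gill 3 stood far above them.

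The next 7 members by this rank differed mainly in how far the gills exceeded the other tissues. ENSDARP00000119141 averaged 1045 ± 175 CPM in brain, 9532 ± 990 CPM in gills and 746 ± 400 CPM in liver, a ratio of 12.8. ENSDARP00000117673 averaged 771 ± 127, 4863 ± 720 and 2898 ± 646 CPM in the same tissues. ENSDARP00000067953 averaged 651 ± 109, 4154 ± 643 and 2776 ± 546 CPM. All gill values of the first pair lay above all liver values, while gills and liver overlapped in ENSDARP00000067953. ENSDARP00000038850 averaged 754 ± 140 CPM in brain, 3562 ± 522 CPM in gills and 2546 ± 645 CPM in liver. ENSDARP00000092887 averaged 895 ± 131, 3402 ± 730 and 2307 ± 830 CPM, and the gill and liver values of both these members overlapped. ENSDARP00000003641 averaged 649 ± 115, 2145 ± 588 and 808 ± 275 CPM, and ENSDARP00000021064 averaged 904 ± 123, 1591 ± 203 and 781 ± 87.2 CPM. In these last members the brain and liver means lay close together below the gills.

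The evenest member across tissues was ENSDARP00000013664, with 290 ± 38.8 CPM in brain, 279 ± 40.3 CPM in gills and 243 ± 50.6 CPM in liver, a ratio of 1.19. ENSDARP00000040396 followed at a ratio of 1.198, with 241 ± 48.9, 289 ± 70.8 and 252 ± 132 CPM. Its liver mean averaged unlike stations, with 146 ± 5.99 CPM in salt livers and 358 ± 98.3 CPM in reference livers, so its evenness is that of means over both stations. ENSDARP00000042099 had 120 ± 13.5, 129 ± 18.5 and 153 ± 26.8 CPM, a ratio of 1.27. For each of these 3 members the libraries of the 3 tissues overlapped. At the other end, ENSDARP00000110768 had 2105 ± 364 CPM in gills, 565 ± 104 CPM in liver and 129 ± 32.1 CPM in brain, a ratio of 16.3. ENSDARP00000092488 had 8040 ± 3826 CPM in gills, 1661 ± 1017 CPM in brain and 548 ± 466 CPM in liver, a ratio of 14.7. The largest ratio, 17.6 for ENSDARP00000087875, came from reference fish 2, described further on. The last members inside the list were ENSDARP00000114681 and ENSDARP00000098474, each with a lowest mean of 102 CPM. The first outside were ENSDARP00000006973 and ENSDARP00000005930, each at 100.3 CPM.

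The members were not alike in what the identifiers say of them. A signal peptide tag stood on 189 members (94.5%), and it stood on 93.2% of the 5875 genes that met the conditions on hit and tag, so it sets the members little apart. The members comprised 695 assembled transcripts, with a median of 3 and at most 12 a gene. A single transcript made up 52 members (26%), against 19.4% of the 5875 genes. They had 196 distinct accessions, since 4 accessions each led a pair of members. The hit of 35 members also led at least 1 other gene in the tables. Reads may have been split between such near copies by the counting, so the level of each copy is uncertain.

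Within the 4 pairs, both copies had the same order of tissue means, but the differences between tissues were not equal in size. The second copy of ENSDARP00000006339 had 0.316 of the CPM of the first in brain, 0.322 in gills and 0.361 in liver. The second copy of ENSDARP00000104512 had 0.406, 0.486 and 0.398 of the first in the same tissues. For ENSDARP00000021064 the shares were 0.464, 0.338 and 0.414. The pair of ENSDARP00000090766 was the least even, with 0.149 in brain, 0.298 in gills and 0.351 in liver. Its highest tissue mean was 1.71 times the lowest in the first copy and 3.43 times in the second.

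Together the members took 7.80, 8.13 and 8.26% of the counts in salt brains, against 8.22, 8.56 and 7.36% in reference brains. In gills they took 19.57, 17.96 and 19.27% in salt fish, against 19.64, 19.99 and 22.17% in reference fish. The stations overlapped in brain. In gills every salt library lay below every reference library, but the gap was far smaller than the spread within either station. The gill share was more than double the brain share in every library. In liver, with the left-out hit in the totals, the members took 6.66, 5.43 and 7.48% in salt fish, against 6.86, 9.34 and 10.7% in reference fish. Without that hit the shares were 11.3, 9.46 and 11.2% in salt livers, against 9.66, 9.34 and 10.7% in reference livers. The difference of the liver means thus had the opposite direction with the hit left out, at 10.6 ± 1.03% in salt and 9.89 ± 0.689% in reference livers (SD, n = 3 each). The 95% Wilson interval of any such share was at most 0.0201 percentage points to each side, which covers counting error only.

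**Figure D2:**
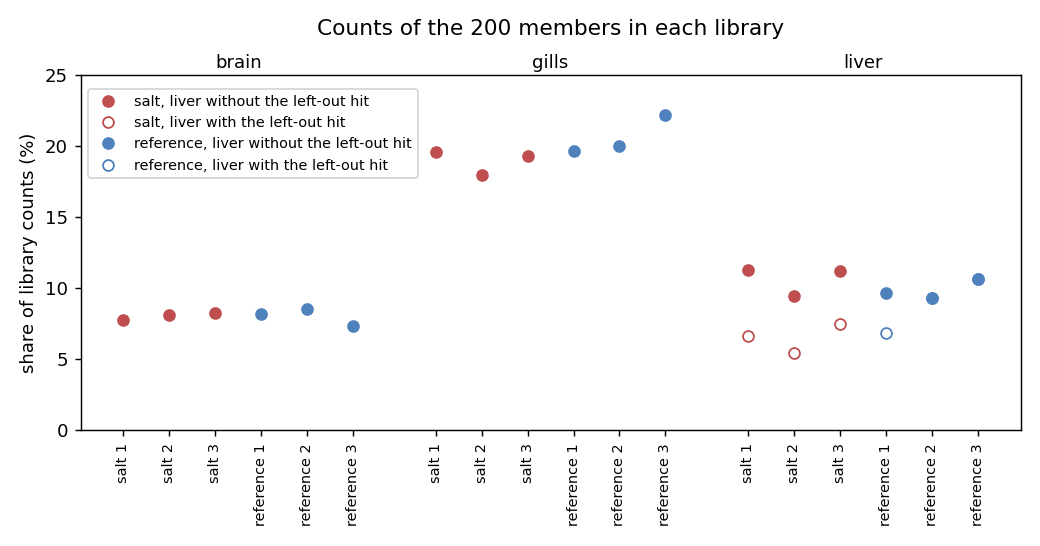
Share of each library's counts, in percent, that the 200 members took together, with salt (red) left of reference (blue) in each tissue, 1 point per library. Open liver points include the left-out hit in the total and filled points do not. Gill libraries lie between 17.96 and 22.17%, above all brain and liver libraries.

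In brain, no member passed the test between the stations. Adjusted p-values of edgeR's quasi-likelihood test, with Benjamini-Hochberg adjustment over the 26930 genes tested, were 0.401 or more for all 200 members, and 0 genes of the whole table were called (0%). At an unadjusted p under 0.05 in edgeR there were 21 members (10.5%), against 6.41% of all genes. Of these, 20 members (10%) were higher in salt brains, against 3.01% of all genes, and 1 (0.5%) was lower, against 3.4%. The stations did not overlap for 26 members (13%), close to the 12.8% of all genes, but with an uneven direction. All salt brains were higher for 24 members (12%, against 6.82%), and all were lower for 2 (1%, against 6.01%). DESeq2 called 8 members, all higher in salt and all among those 21, and 404 of the 27606 genes in its fit. Some of these 8 members, and of the 24, are in the list through their salt brains, as given further on.

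The fitted differences of the members in brain were small. Their median log2 fold change, salt over reference, was 0.07, against 0.00 for all genes tested. It was 0.01 without reference brain 2 and 0.15 without reference brain 1, the lowest and highest values with a library left out. It was above 0 for 135 members (67.5%, against 50.2% of all genes) and below 0 for 65. For 184 members it lay within 0.5 of 0, as it did for 70.8% of all genes. The 95% interval of the fold change lay wholly within 1 of 0 for 182 members (91%), against 40.8% of all genes. The members' median standard error was 0.14, against 0.36 over all genes. The members were chosen for high counts, and the part of count level in this difference was not tested.

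Among the 20 members higher in salt brains at an unadjusted p under 0.05, the log2 fold change ran from 0.28 to 1.66 with a median of 0.55, over 1 for 7 and under 0.5 for 9. The choice of members bears on this count. For 7 of the 20, the mean of the reference brains alone lay under the lowest member mean of 102 CPM, so these are in the list through their salt brains. Over all members this held for 9, and the mean of the salt brains lay under it for 1. Of the 190 members with both brain station means at that level or above, 13 (6.84%) were higher in salt at an unadjusted p under 0.05 in edgeR. The median log2 fold change of the 190 was 0.06. The 7 with the low reference brain mean are all among the 24 members whose salt brains were all higher. That count and the DESeq2 calls were not recomputed over the 190 members.

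ENSDARP00000110768, the member with the smallest brain p, had 149.9, 163 and 159 CPM in salt brains, against 111, 86.9 and 106 CPM in reference brains. The stations were well apart, and the salt brains were close to each other. It differed by 0.63 ± 0.10 (SE) in log2 fold change, with an adjusted p of 0.401 in edgeR and 3.11e-05 in DESeq2. ENSDARP00000057376 had 149, 195 and 223 CPM in salt brains, against 99.4, 64.1 and 87.9 CPM in reference brains. Again every salt brain lay above every reference brain. Its log2 fold change was 1.17 ± 0.20 (SE), with an adjusted p of 0.445 in edgeR and 0.000161 in DESeq2. The reference brain means of both members, 101 and 83.8 CPM, lay under the lowest member mean.

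Several of the larger differences came from salt brains 2 and 3. ENSDARP00000092488 had 1256, 3069 and 2802 CPM in salt brains, against 1274, 644 and 923 CPM in reference brains. Salt brain 1 lay inside the reference range, and the log2 fold change was 1.34. ENSDARP00000114681 had 83.3, 160 and 181 CPM in salt brains, against 61.4, 59.2 and 68.8 CPM in reference brains. ENSDARP00000019044 had 109, 226 and 205 CPM in salt brains, against 98.3, 88.7 and 64.9 CPM in reference brains. In these last members salt brain 1 lay above the reference brains but nearer to them than to salt brains 2 and 3. Their reference brain means, 63.1 and 84.0 CPM, lay under the lowest member mean of 102 CPM. Both are thus in the list through their salt brains. The count of 21 members at an unadjusted p under 0.05 in edgeR moved with single libraries. It was 10 (5%, against 4.66% of all genes) without salt brain 3, 11 (5.5%, against 5.12%) without salt brain 2 and 12 (6%, against 4.12%) without reference brain 3. Without reference brain 1 it was 38 (19%, against 5.73%), and without reference brain 2 it was 20 (10%, against 9.85%). With both directions pooled, the members' share thus lay near that of all genes without salt brain 2, salt brain 3 or reference brain 2. The direction stayed uneven. Without salt brain 2, 11 members were higher in salt and 0 lower, without salt brain 3 they were 10 and 0, and without reference brain 2 they were 16 and 4. The share of all genes by direction was not computed for these settings.

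**Figure D3:**
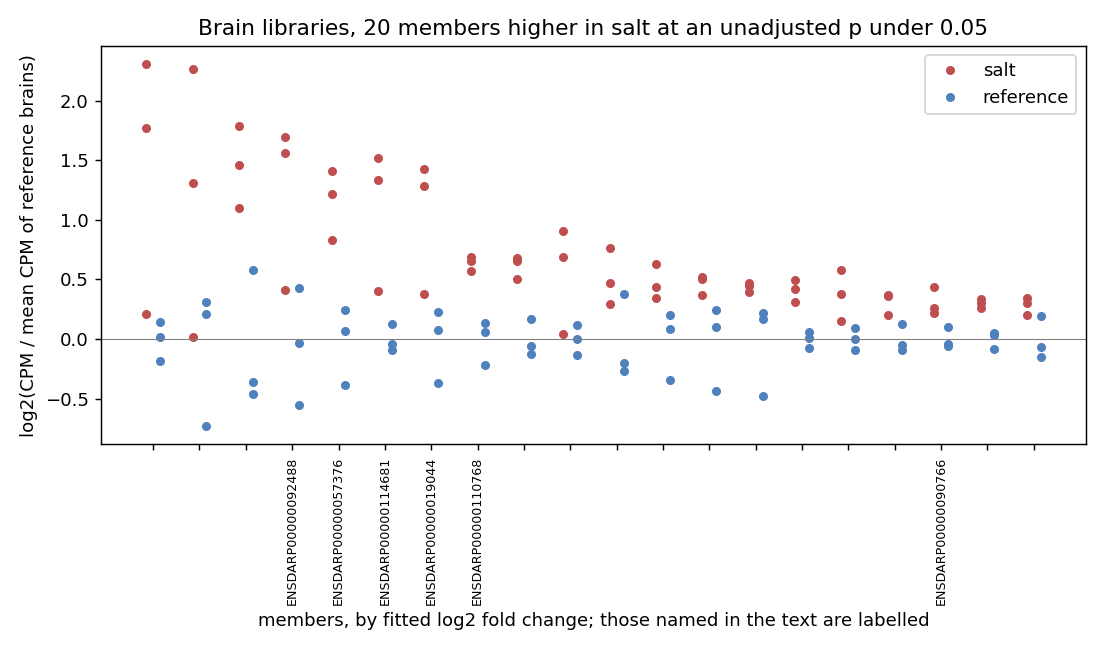
Brain level of the 20 members higher in salt at an unadjusted p under 0.05 in edgeR, as log2 of CPM over the mean CPM of the reference brains, 1 point per library, ordered by fitted log2 fold change from 1.66 to 0.28. Salt points (red) stand left of reference points (blue). In several of the leftmost members the lowest red point lies near the blue ones.

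The members lower in all salt brains were ENSDARP00000110343 and ENSDARP00000069275. ENSDARP00000110343 had 884, 789 and 905 CPM in salt brains, against 945, 937 and 1149 CPM in reference brains. The gap between the stations was narrower than the spread of the reference brains. Its log2 fold change was -0.24 ± 0.11 (SE), with an adjusted p of 0.790 in edgeR, and it became 0.29 when counts were summed per first hit. ENSDARP00000069275 had 451, 515 and 489.7 CPM in salt brains, against 530.1, 522 and 616 CPM in reference brains. Its log2 fold change was -0.20 ± 0.11 (SE), with an adjusted p of 0.815 in edgeR.

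In gills, no member passed the test either, and the members leaned the other way. Of the 22958 genes tested 0 were called (0%), and every member had an adjusted p of 1.00 in edgeR. At an unadjusted p under 0.05 in edgeR there were 0 members, against 1.05% of all genes (0.588% higher and 0.462% lower in salt). DESeq2 called 0 members and 5 genes of 24638. It put 10 members (5%) at an unadjusted p under 0.05, 2 higher and 8 lower in salt, against 2.59% of all genes. The median log2 fold change of the members was -0.16, against 0.03 for all genes. With no scaling factors it was -0.09, against 0.09. Without gill salt 3 and gill reference 1 it was -0.20, against 0.05. It was below 0 for 160 members and above 0 for 40 (20%, against 52.4% of all genes), and within 0.5 of 0 for 182, against 67.2% of all genes.

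The gill stations did not overlap for 10 members (5%), against 6.02% of all genes. All salt gills were higher for 3 (against 3.98% of all genes), and all were lower for 7 (against 2.04%). With TMM-scaled totals these counts were 1 (against 2.95% of all genes) and 27 (13.5%, against 3.27%). The 95% interval lay within 1 of 0 for 157 members (78.5%), against 21.4% of all genes. Without gill salt 3 and gill reference 1, that count was 42, and 1 member reached an unadjusted p under 0.05 in edgeR, against 3.15% of all genes. Leaving out salt 3 alone gave 6 such members (3%, against 3.22% of all genes). Leaving out reference 1 alone gave 7 (3.5%, against 3.43%), so both shares lay near those of all genes. The mean of the reference gills alone lay under the lowest member mean of 102 CPM for 2 members, and that of the salt gills alone for 2.

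ENSDARP00000019044 had 133, 311 and 114 CPM in salt gills, against 112, 61.7 and 109 CPM in reference gills. Its reference gill mean, 94.3 CPM, lay under the lowest member mean of 102 CPM, so it is in the list through its salt gills. Salt gill 2 stood far above the rest, while salt gill 3 and reference gill 1 almost met. The log2 fold change was 0.92 ± 0.43 (SE). It ran from 0.36 to 1.18 when single libraries were left out, and it was 1.33 without gill salt 3 and gill reference 1. ENSDARP00000123883 had 489, 487 and 437 CPM in salt gills, against 415, 433 and 339.8 CPM in reference gills, a log2 fold change of 0.18 ± 0.20 (SE), and 0.27 without that pair. The gap between its stations was a few CPM.

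ENSDARP00000040396, one of the evenest members across tissues by means over both stations, had 261, 189 and 265 CPM in salt gills, against 281, 385 and 356 CPM in reference gills. Its log2 fold change was -0.58 ± 0.24 (SE), and -0.77 without gill salt 3 and gill reference 1. Every salt gill lay below every reference gill, with salt gill 3 and reference gill 1 the closest across the stations. ENSDARP00000060443 had 683, 506 and 690.1 CPM in salt gills, against 820.0, 742 and 875 CPM in reference gills, a log2 fold change of -0.43 ± 0.20 (SE), and -0.49 without that pair. For these 4 members the adjusted p was 1.00 in edgeR.

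**Figure D4:**
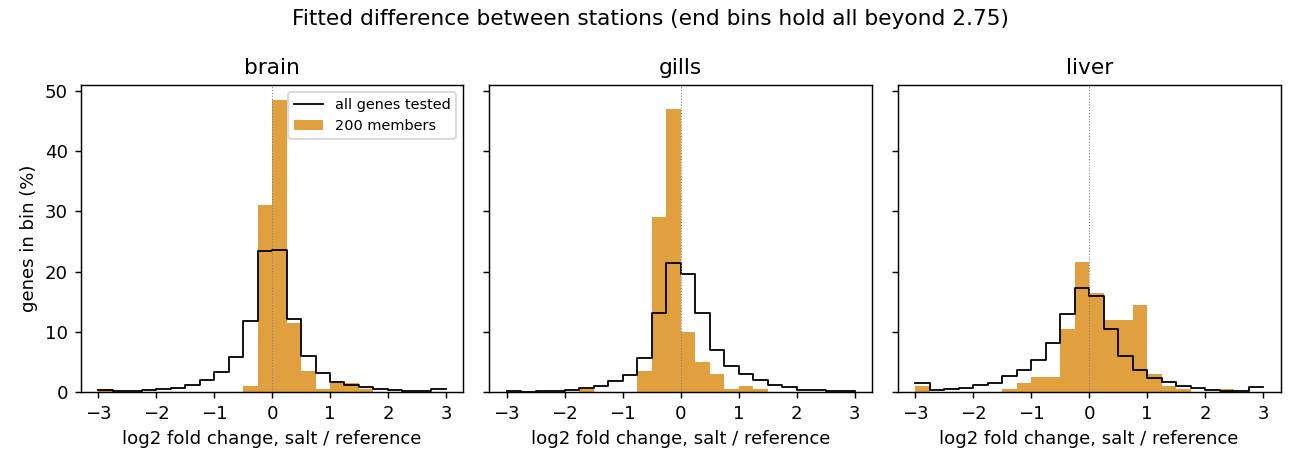
Distribution of fitted log2 fold changes, salt over reference, in bins of 0.25, as a percent of the 200 members (filled bars) and of all genes tested (line) in each tissue. The members crowd near 0 in brain (median 0.07) and slightly below 0 in gills (median -0.16), and spread more widely in liver (median 0.12).

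Liver values entered the rule library by library, so they are given as a description only. Of 14343 genes tested, edgeR called 0 (0%), members included, and put 15 members at an unadjusted p under 0.05, against 6.39% of all genes. They comprised 13 higher in salt livers (against 3.1%) and 2 lower (against 3.28%). DESeq2 called 22 members and 264 of the 14896 genes in its fit. Salt and reference livers did not overlap for 48 members, against 15.5% of all genes. All salt livers were higher for 35 (against 3.93%) and lower for 13 (against 11.5%). With TMM-scaled totals these counts were 60 (against 7% of all genes) and 5 (against 6.92%). The 95% interval lay within 1 of 0 for 66 members, against 17.5% of all genes. The median log2 fold change of the members was 0.12, against -0.09 for all genes, and with no scaling factors it was -0.78, against -0.98. Without reference liver 1, 46 members were at an unadjusted p under 0.05 in edgeR (23%, against 10.4% of all genes), and without salt liver 3 there were 2 (1%, against 4.39%). The mean of the salt livers alone lay under the lowest member mean for 28 members, and that of the reference livers alone for 3, so these are in the list through the other station's livers.

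The salt differences were also compared between tissues, in a single edgeR fit over the 11818 genes in all 3 tables. For gills minus brain, 0 genes were called (0%), and 3 members (1.5%) had an unadjusted p under 0.05 in edgeR, against 1.96% of all genes. The members' median was -0.27, against -0.01 for all genes. ENSDARP00000110768 differed by -0.76 ± 0.28 (SE) between the tissues on the log2 scale and ENSDARP00000040396 by -0.87 ± 0.33. The reference brain mean of ENSDARP00000110768, 101 CPM, lay under the lowest member mean, so it is in the list through its salt brains. The remaining member was ENSDARP00000087875 at 5.78 ± 2.67, which rests on brain reference 2. The adjusted p of each was 1.00 in edgeR. Without gill salt 3 and gill reference 1, the members' median in this contrast was -0.33, against -0.03 for all genes. An unadjusted p under 0.05 in edgeR was then reached by 3 members (1.5%, against 3.46% of all genes). With liver the contrasts are a description. For liver minus brain 0 members and 10 genes were called (0.0846%), with 43 members at an unadjusted p under 0.05 in edgeR (against 7.98% of all genes). For liver minus gills 0 members and 14 genes were called (0.118%), with 57 members at such a p (against 9.76%). Without liver reference 1, edgeR called 14 members in liver minus gills (7%), against 208 genes (1.76%). The edgeR fit does not model that libraries of different tissues share fish. With the fish code as a block, limma called 0 members in each contrast, 1 gene in liver minus brain and 0 genes in liver minus gills. It put 59 and 64 members at an unadjusted p under 0.05 in these contrasts (against 7.27% and 7.52% of all genes). The block follows the codes, so gill salt 3 stands with brain and liver salt 1. Its transcript shares, given further on, lay nearer to the libraries of reference 1.

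Within a tissue, the members had a smaller median spread between fish than the genes of all 3 tables. They were chosen for high counts and under a limit on single liver libraries. Without that limit the list kept all 200 members. The part of the choice for high counts in the smaller spread was not tested, so the spread is a description. The SD of log2(CPM + 1) within a station had a median of 0.19 over members in brain, against 0.25 over the 11818 genes in all 3 tables. In gills the medians were 0.25 and 0.40, and in liver 0.34 and 0.46. In brain 101 members had an SD under 0.2, in gills 63 and in liver 18, and the share of all genes under 0.2 was not computed. The steadiest member over brain and gills was ENSDARP00000028641, with an SD of 0.09. It had 233, 233 and 246 CPM in salt brains, against 221, 202 and 222 CPM in reference brains. In gills it had 373, 348 and 346 CPM in salt fish, against 330.3, 399 and 385 CPM in reference fish. ENSDARP00000115013 followed at an SD of 0.10.

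At the other end, 13 members had at least 1 library more than 4-fold from the median of its tissue. The most extreme pair, ENSDARP00000087878 and ENSDARP00000087875, stood apart in the brain and the liver of the same fish, reference 2, and in opposite directions. ENSDARP00000087878 (DN25792_c1_g1) had 2276, 1879 and 1919 CPM in salt brains, against 2502, 0.412 and 1843 CPM in reference brains. In liver it had 508, 668 and 579 CPM in salt fish, against 771, 0.0303 and 536 CPM in reference fish. The low brain value stood for 10 counts and the low liver value for 1 count. In gills, whose reference 2 has another fish code, it had 1041, 1511 and 1116 CPM in salt fish, against 988, 1089 and 356 CPM in reference fish. The mean of the other 5 brains, 2084 ± 291 CPM (SD), was 5055 times the value of reference brain 2.

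ENSDARP00000087875 (DN167722_c2_g1) had 81.1, 132 and 74.7 CPM in salt brains, against 130.3, 20564 and 87.1 CPM in reference brains. In liver it had 36.6, 39.2 and 61.8 CPM in salt fish, against 51.9, 7649.6 and 32.6 CPM in reference fish. Its gill values, 184, 43.8 and 274 CPM in salt fish, against 196, 233 and 265 CPM in reference fish, showed no high library, while salt gill 2 lay more than 4-fold under the tissue median. Reference brain 2 lay 203-fold above the mean of the other brains, and reference liver 2 lay 172-fold above the mean of the other livers. That liver mean, 44.4 ± 12.1 CPM (SD, n = 5), is under the lowest member mean, so the gene is in the list through this fish. It was also the only member lower in salt brains at an unadjusted p under 0.05 in edgeR, with a log2 fold change of -6.28, and -0.14 without reference brain 2. For ENSDARP00000087878 the brain log2 fold change was 0.52, and -0.07 without that library.

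A further gene that is no member, DN312830_c1_g1, has the same accession as the gene that was high in this fish. It had 0 counts in the brain and in the liver of reference 2, where the other libraries held 16.6 to 26.7 CPM in brain and 6.44 to 14.2 CPM in liver. Against a floor of 3 counts per library, it was at least 176-fold lower in that brain and at least 100.2-fold lower in that liver than the mean of the others. How reads were divided among these related genes was not tested. Leaving out both libraries of this fish kept 195 of the 200 members.

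**Figure D5:**
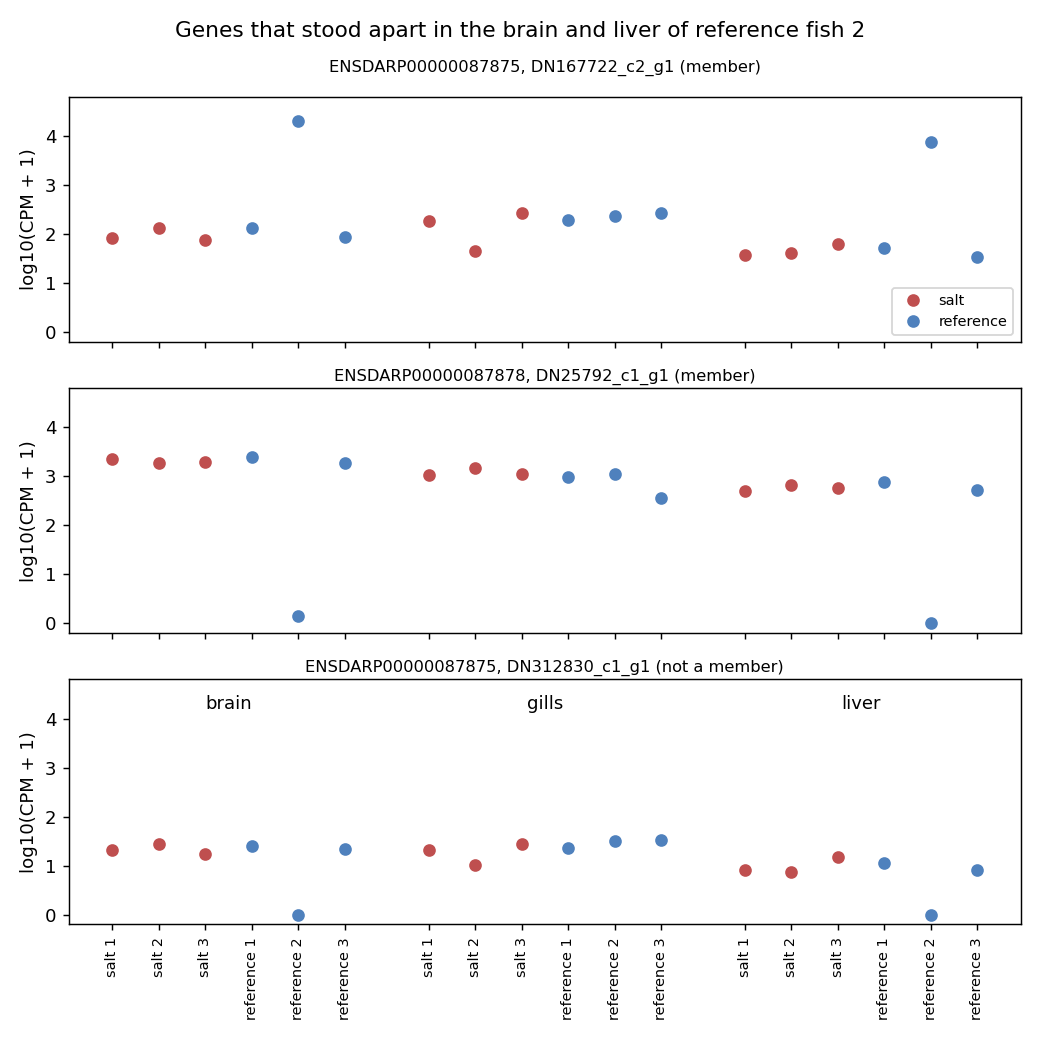
Level of 3 genes, as log10(CPM + 1), in each of the 18 libraries, salt (red) left of reference (blue) within each tissue. In brain and liver of reference 2 the top gene lies far above the other libraries, at 20564 and 7649.6 CPM, and the other genes lie at or near 0. Gill reference 2 comes from a different fish code and shows none of this.

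Across all members, brain and liver deviations of a fish were compared. Each library's deviation was taken from the member's median in that tissue, in log2(CPM + 1). Over the 200 members, the correlation between brain and liver deviations of the same fish had a median of 0.198 (0.0634 to 0.825, 6 pairs). For different fish the median was -0.0252 (-0.446 to 0.264, 30 pairs). Without the 13 members named above by their distance, the same-fish values ran from 0.00437 to 0.426 with a median of 0.157, and the different-fish values from -0.238 to 0.248 with a median of -0.0751. The ranges overlapped with and without those members. These correlations are across genes of shared libraries and are a description.

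The make-up of many members by transcript differed widely between fish. Of the members, 139 had at least 2 transcripts in all 3 tables and at least 100 counts in every library, with 504 transcripts among them. Shares are of the summed counts of a member's transcripts that are in all 3 tables, and other transcripts are left out. The range of the main transcript's share was taken within each tissue and averaged over the 3 tissues. This mean range had a median of 17.6 percentage points and leaves out differences between tissues. The mean range was under 10 points for 41 members and over 50 points for 23. ENSDARP00000117066 shows this most plainly. Its brain level was 694, 634 and 659 CPM in salt fish, against 687, 594 and 628 CPM in reference fish. Among its transcripts in all 3 tables, the main transcript held 27.3, 0 and 100% of the counts in salt brains, against 33.3, 48.0 and 0% in reference brains. In liver it held 27.9, 0 and 87.6% in salt fish, against 33.7, 47.2 and 0% in reference fish. Fish by fish, the liver share thus lay near the brain share. In gills, where the replicate numbers mostly stand for other fish, it held 86.0, 100 and 31.6% in salt fish, against 35.4, 92.7 and 28.5% in reference fish.

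ENSDARP00000042321 followed the same fish-wise pattern. Its main transcript held 0.184, 1.14 and 67.6% of its counts in salt brains, against 2.54, 90.7 and 91.3% in reference brains. In liver the shares were 0, 1.69 and 71.0% in salt fish, against 1.84, 89.8 and 89.4% in reference fish. In gills they were 77.1, 60.4 and 0% in salt fish, against 0, 50.6 and 18.9% in reference fish. The main transcript of ENSDARP00000106703 held 0, 0 and 82.9% in salt brains, against 70.11, 44.8 and 56.8% in reference brains. Its liver shares were 0, 0 and 86.3% in salt fish, against 70.0, 47.3 and 51.9% in reference fish. The gill shares were 79.6, 40.9 and 80.2% in salt fish, against 86.7, 0 and 0% in reference fish. Wilson intervals of these 3 members' shares reached at most 2.34 points to each side, and a share of 0 allows up to 0.0200 to 0.209%. These bounds cover counting error only.

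Over the 504 transcripts, the deviations of transcript shares were compared between libraries of different tissues. With the same fish code the correlation was 0.629 to 0.888, with a median of 0.839 over 10 pairs that leave out gill salt 3. With different codes it was -0.556 to 0.392, with a median of -0.0670 over 86 pairs. Gill salt 3 went against its code. Its correlation was 0.156 with the brain library and 0.154 with the liver library that share its code, but 0.674 with brain reference 1 and 0.690 with liver reference 1. With gill reference 1 itself the value was 0.915. The correlations are across transcripts of shared genes and are a description, and which fish gill salt 3 came from was not tested further. Gill results that include it are therefore those of a library labelled salt.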

How the data were processed

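RNA was extracted with a column kit and TruSeq libraries were made, per the labels' protocols. The authors deposited a table of raw counts per assembled transcript for each tissue. Trimmomatic and DESeq2 are named, without versions, in the submitters' processing notes. What aligned and counted the reads, and with what strand setting, is not given in the sources used here. The identifiers come from a Trinity assembly, per the file contents.

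Counts were summed per Trinity gene. A gene's first hit is that of its transcript with the most counts over all libraries. CPM used column totals, without the left-out hit's 20 transcripts in liver. Stations were compared by tissue with edgeR's quasi-likelihood test (edgeR 4.0.16, R 4.3.3), two-sided, with TMM scaling, filterByExpr and Benjamini-Hochberg adjustment over all genes tested, at a threshold of 0.05. The 2 stations had 3 libraries a tissue, named biological replicates in the titles. As the labels name no further source, p-values measure the spread between these libraries. Differences between tissues used contrasts of a single edgeR fit over 18 libraries, with limma 3.58.1 as an alternative. Alternatives also included DESeq2 1.42.0, other scaling and filters, first hits in place of genes, a replicate block and leaving out libraries. The fits were also run on simulated counts with planted changes larger than most differences described here. Those runs do not show whether changes of the described size would be called. Python 3.11.15 with pandas 2.3.3, numpy 2.4.6, scipy 1.17.1 and matplotlib 3.10.9 made the rest. The correlation of same-numbered libraries' deviations ran from -0.326 to 0.162, so numbers did not pair the stations.

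The members and lists were chosen with earlier results of these data known. Members named are the 10 first by rank, the 3 evenest and 3 least even across tissues, those at the edge of the list, the 2 smallest p per direction among non-overlapping members in brain and gills, the 2 steadiest and 2 most variable, and the 3 with the widest transcript shares. The genes singled out in the contrast between gills and brain, and DN312830_c1_g1, were chosen after their values were seen.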

Additional observations from a re-analysis of the deposited data

How the results depend on the processing

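Of 405 alternative values for 33 results, 362 kept their direction, their side of the threshold and, for counts, a size within 1.5 times, 39 moved, 2 reversed and 2 became called. Many of the 362 are counts of 0 called members under both settings. Others are contrasts refitted without a library of the tissue not compared. The 362 are therefore no measure of robustness on their own. edgeR called 0 members within any tissue under each of its settings and under each left-out library. DESeq2 called 8 members in brain (4%, against 1.46% of all genes) and 22 in liver (11%, against 1.77%). ENSDARP00000110768, ENSDARP00000057376 and ENSDARP00000114681 were among those in brain. Their reference brain means, 101, 83.8 and 63.1 CPM, lay under the lowest member mean of 102 CPM, so they are in the list through their salt brains. ENSDARP00000092488, also called there, had a reference brain mean of 947 CPM. The part of the choice of members in these calls was not tested. At an unadjusted p under 0.05, gills held 10 members in DESeq2 (5%, against 2.59% of all genes). They held 1 (0.5%) with no filter (against 1.35%), with the replicate block (against 1.2%) or without salt 3 and reference 1 (against 3.15%). Without those 2 libraries, 42 gill intervals lay within 1 of 0. In liver, members at such a p numbered 57 (28.5%) with no scaling factors, near the 28.9% of all genes. They numbered 58 in DESeq2 (29%, against 10.3%) and 5 with the replicate block (2.5%, against 5.06%). Liver intervals within 1 of 0 numbered 3 with no scaling factors and 43 with the block. The share of all genes was not computed for such intervals outside the main setting. In the gills minus brain contrast, limma with fish as a block put 5 members at such a p (2.5%, against 3.07% of all genes). The reversed values were 0.29 for ENSDARP00000110343 in brain by first hit and -0.78 for the liver median with no scaling factors. The cause was not tested.

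Leaving out 1 library at a time, members at an unadjusted p under 0.05 in edgeR ran from 10 to 38 in brain. They ran from 0 to 7 in gills and 2 to 46 in liver. At these ends the brain shares were 5% (against 4.66% of all genes) and 19% (against 5.73%). The liver shares were 1% (against 4.39%) and 23% (against 10.4%). The highest gill share, 3.5%, lay near the 3.43% of all genes. The gill count of 0 stood against 0.728% without salt 1 and 0.323% without salt 2. Intervals within 1 of 0 ran from 173 to 182 in brain, 110 to 157 in gills and 25 to 56 in liver. For the contrasts the range of members at an unadjusted p under 0.05 in edgeR was also taken. In gills minus brain it was 1 (0.5%, against 1.5% of all genes) to 5 (2.5%, against 2.01 to 2.28%). In liver minus brain it was 28 (14%, against 7.07%) to 55 (27.5%, against 8.51%). In liver minus gills it was 47 (23.5%, against 9.91%) to 65 (32.5%, against 11.7%). Called members in liver minus gills ran from 0 to 14 (7%, against 1.76% of all genes). The replicate block gave 15 members in brain (7.5%, against 5.21% of all genes) at an unadjusted p under 0.05 in edgeR. It called 0 in each tissue, so it changed no call.

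The list kept 165 members with any first hit allowed, 167 with transmembrane tags allowed, 186 with the left-out hit in the liver totals, 191 with a ratio limit of 10 and 189 to 200 without a single library. Leaving out reference fish 2 and the use of TMM-scaled totals for overlap were chosen after seeing the data. Between gill libraries, counting alone gave a median difference over the members of 0.02 on the log2 scale for the closest pair, which measured 0.07. Some members had few counts in single libraries of the other tissues. The lowest member count was 58 in salt liver 1, 26 in salt liver 3, 10 in reference brain 2 and 1 in reference liver 2.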
